A study of Mus musculus with 18 samples.

Results

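The endothelin system comprises secreted peptides, the receptors that bind them and the membrane peptidases that activate them. The 7 genes described are the ligand genes Edn1, Edn2 and Edn3, the receptor genes Ednra and Ednrb, and the converting enzyme genes Ece1 and Ece2. They were taken as a named gene family, with the abundance of Ednrb already known, and are 7 of the 55416 genes in the deposited tables. All 7 were found by Ensembl identifier, 6 had reads in at least 1 library, and 6 passed the filter on low counts that preceded the tests.

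RNA was sequenced from optic nerve head of the mouse, the place at which retinal ganglion cell axons exit the eye, in 18 libraries made from laser-captured tissue. Per the labels there were 3 libraries of B6.EDA+/+ mice and 5 of C57BL/6J control mice aged 22 months, and 5 of B6.EDA+/+ mice and 5 of C57BL/6J control mice aged 12 months. As background, B6.EDA+/+ mice carry a fibronectin gene changed so that its transcripts always include the extra domain A (EDA) exon, in every cell that makes fibronectin. The series title names damage-associated molecules and fibroinflammatory change of the glaucomatous optic nerve head as its subject. No treatment, sex or litter is given. By reads, Xist exceeded Y-linked genes in 1 of 3 EDA-labelled and 0 of 5 control-labelled libraries at 22 months, and in 2 of 5 EDA-labelled and 2 of 5 control-labelled libraries at 12 months, so females were unevenly spread over the groups at 22 months. Which libraries share an animal is not stated, so p-values measure the spread between libraries and are too small where animals are shared.

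As background, each endothelin is cut from a larger precursor and then activated by a converting enzyme. The A receptor, encoded by Ednra, sits mainly on vascular smooth muscle and pericytes and drives contraction through Gq and calcium release. The B receptor, encoded by Ednrb, sits on endothelium, where it releases nitric oxide and clears the peptide, and on astrocytes, neural crest and melanocytes. In the optic nerve head endothelin is studied as a vasoconstrictor and as a signal to astrocytes in glaucoma.

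The 3 ligands share a peptide of 21 residues closed by 4 cysteines, and the coding bases of that peptide are shown because this peptide is what the receptors bind. They were read from the GENCODE M21 transcripts (GRCm38), 5′ to 3′ on the coding strand, with the 4 cysteine codons in capitals.
Edn1: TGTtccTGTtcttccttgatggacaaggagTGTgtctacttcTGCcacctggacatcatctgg
Edn2: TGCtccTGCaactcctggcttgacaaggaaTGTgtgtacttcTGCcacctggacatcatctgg
Edn3: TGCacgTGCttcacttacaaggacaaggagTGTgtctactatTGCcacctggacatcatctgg
Edn1 and Edn2 differ at 10 of the 63 bases and at 3 of the 21 residues. Edn3 differs from Edn1 at 13 bases and 6 residues, and from Edn2 at 15 bases and 6 residues.

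Before the members are described, the genotype label was checked. The EDA exon of fibronectin (Fn1) made up 4.2% ± 7.3 (SD, n = 3) of the Fn1 transcripts spanning it in libraries labelled EDA and 41.8% ± 53.3 (SD, n = 5) in those labelled control at 22 months. At 12 months it made up 22.8% ± 27.97 in libraries labelled EDA and 31.1% ± 44.6 in those labelled control (SD, n = 5 each). These shares are ratios of estimated isoform TPM, in libraries that held 68 to 1485 Fn1 reads. They ran from 0% to 100% within the control-labelled libraries at 22 months. The estimated share thus did not follow the labels, but it is too uncertain to decide whether the labels hold. Every direction given here is between libraries labelled EDA and libraries labelled control. Totals ran from 13097498 to 18488733 expected counts, and the scarce members rest on few reads in many libraries. Astrocyte markers summed to 5575 to 24318 TPM (transcript abundance scaled for length and library total), endothelial markers to 89.9 to 393 TPM and mural cell markers to 143 to 3146 TPM.

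The level of the members was very uneven. Over the 18 libraries the median was 4495 TPM for Ednrb, 6.04 TPM for Edn3, 2.24 TPM for Ece2, 1.19 TPM for Ece1, 0.395 TPM for Edn1, 0.025 TPM for Ednra and 0 TPM for Edn2. Ednrb stood above every other member in all 18 libraries. The ranges of Edn3, Ece2, Ece1, Edn1 and Ednra overlapped, and whether neighbours in that order differed within libraries was not tested.

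**Figure D1:**
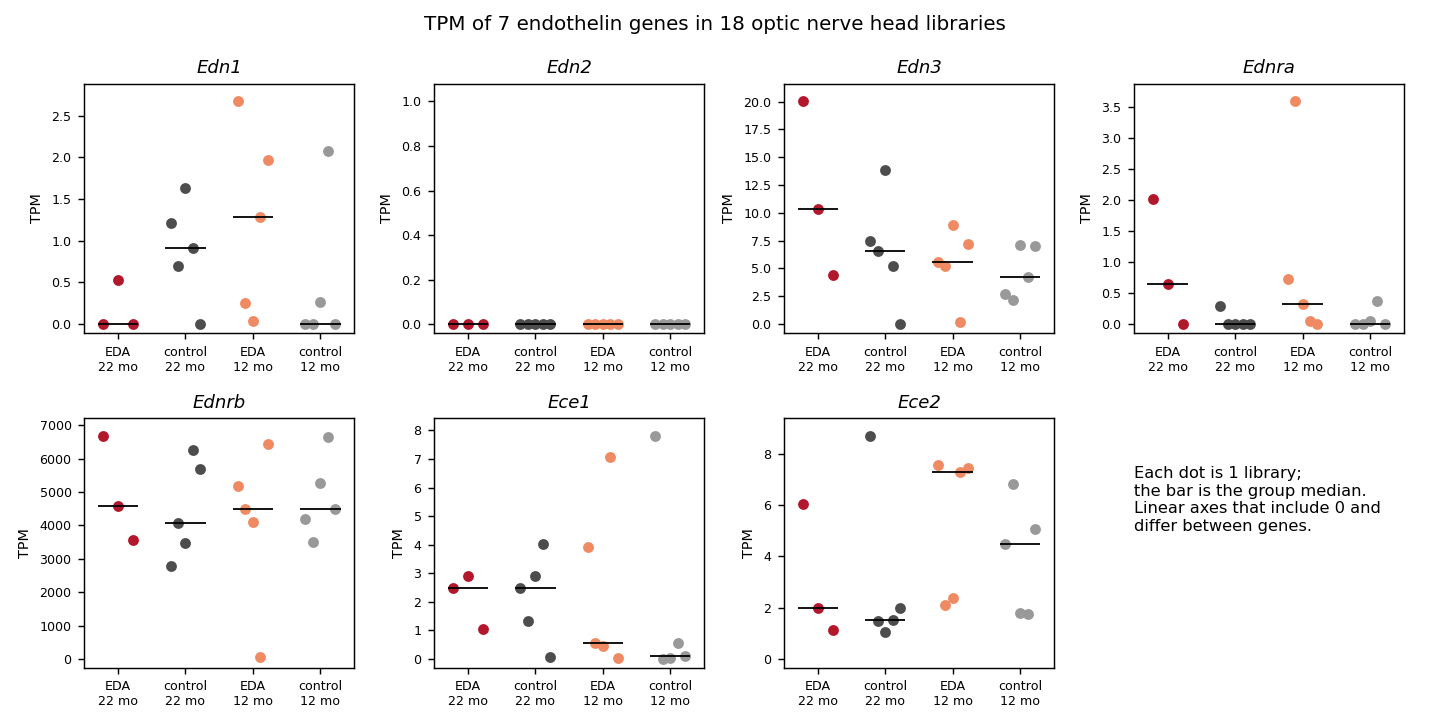
TPM of each of the 7 endothelin genes (vertical axes, linear and different for each gene) in the 18 libraries, by label and age (horizontal axes); each dot is 1 library and each bar a group median. Ednrb lies at 2790 TPM or above except in 1 EDA-labelled library at 12 months at 57.4 TPM, Edn2 is at 0 throughout, and the groups overlap for every gene.

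Edn1 encodes endothelin-1, the main vasoconstrictor of the family, which endothelium releases. The gene (ENSMUSG00000021367) lies on the plus strand of chromosome 13 at 42301476-42307990 in GRCm38. Its level was 0, 0.53 and 0 TPM in the EDA-labelled libraries at 22 months, against 1.21, 0.70, 1.63, 0.91 and 0 TPM in control-labelled libraries. At 12 months it was 2.67, 0.25, 0.04, 1.28 and 1.97 TPM in EDA-labelled libraries, against 0, 0, 0.26, 2.08 and 0 TPM in control-labelled libraries. The highest library held 53 reads and 6 libraries held none. The groups overlapped at both ages, and at 22 months 4 of 5 control-labelled libraries lay above all 3 EDA-labelled libraries.

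Edn2 encodes endothelin-2, known in the retina as a peptide that injured photoreceptors make. The gene (ENSMUSG00000028635) lies on the plus strand of chromosome 4 at 120161206-120167360 in GRCm38. No library held a read, which at these depths allows up to 0.162 to 0.229 CPM, reads scaled to the library total, if 3 reads are taken as the limit (counting error only).

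Edn3 encodes endothelin-3, which prefers the B receptor and is needed for neural crest migration. The gene (ENSMUSG00000027524) lies on the plus strand of chromosome 2 at 174760619-174784042 in GRCm38. Its level was 20.01, 10.34 and 4.39 TPM in EDA-labelled libraries at 22 months, against 7.49, 6.54, 13.9, 5.22 and 0 TPM in control-labelled libraries. At 12 months it was 5.55, 5.18, 8.88, 0.15 and 7.24 TPM in EDA-labelled libraries, against 2.73, 2.13, 7.11, 4.22 and 7.03 TPM in control-labelled libraries. Most libraries thus held Edn3, and the exceptions were control-labelled 22-month library 5 with 0 reads and EDA-labelled 12-month library 4 with 2 reads.

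Edn3 was the larger part of ligand RNA. It made up 85.2% to 100% of the summed ligand TPM in the 7 libraries at 22 months that held any ligand read. In the 12-month libraries it made up 67.0% to 100% in 9 of 10 libraries and 10.5% in EDA-labelled library 4. The full-length coding isoform Edn3-201 carried a median of 92.2% of Edn3 TPM, and the retained-intron isoform Edn3-202 was detected in 10 libraries.

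Ednra, the gene of the contractile A receptor, was close to the detection limit. The gene (ENSMUSG00000031616) lies on the minus strand of chromosome 8 at 77663031-77724464 in GRCm38. Its level was 2.02, 0.64 and 0 TPM in EDA-labelled libraries at 22 months, against 0.29, 0, 0, 0 and 0 TPM in control-labelled libraries. At 12 months it was 0.72, 3.59, 0.32, 0.05 and 0 TPM in EDA-labelled libraries, against 0, 0, 0.05, 0.38 and 0 TPM in control-labelled libraries. The 3 highest values, of 128, 72 and 23 reads, came from EDA-labelled libraries, while 2 of the 8 EDA-labelled and 7 of the 10 control-labelled libraries held no read. The groups overlapped at both ages.

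Mural cells are the known site of Ednra. Their 12 markers summed to 143 to 694 TPM in libraries labelled EDA and 219 to 963 TPM in those labelled control at 22 months, and to 147 to 3146 TPM in libraries labelled EDA and 191 to 364 TPM in those labelled control at 12 months. The sum was carried largely by Cnn1, with a median of 374 TPM, and from 0 to 4 markers were at 0 in a library. Des, Myh11, Kcnj8 and Higd1b were at 0 in 10, 7, 6 and 4 libraries. The other markers were above 0 in every library, among them Acta2, Rgs5 and Pdgfrb with medians of 23.8, 12.4 and 3.6 TPM. EDA-labelled 22-month library 1, the highest in Ednra at that age and the highest of all in Edn3, also stood apart in markers of other tissue. Its skeletal muscle markers summed to 275 TPM, against at most 4.75 TPM in any other library. Its fibroblast and meningeal markers summed to 571 TPM, against at most 370 TPM in any other. The part of mural, muscle or fibroblast RNA in the Ednra and Edn3 values was not tested.

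Ednrb was among the most abundant transcripts of the tissue. The gene (ENSMUSG00000022122) lies on the minus strand of chromosome 14 at 103814625-103844402 in GRCm38. Its level was 6675, 4587 and 3575 TPM in EDA-labelled libraries at 22 months, against 2790, 4079, 3469, 6260 and 5679 TPM in control-labelled libraries. In the 12-month libraries it was 5186, 4499, 4106, 57.4 and 6444 TPM in EDA-labelled libraries, against 4202, 3493, 5269, 6649 and 4491 TPM in control-labelled libraries. In 17 libraries it ranked between 16 and 30 among all genes by TPM and took 0.805% to 1.83% of reads. In EDA-labelled 12-month library 4 it ranked 1483 and took 0.0172% of reads.

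Apart from that library Ednrb was one of the steadier abundant genes. Among the 77 genes with a median of at least 1000 TPM in the other 17 libraries, its standard deviation on the log2 scale, 0.37, was the 10th lowest. In EDA-labelled 12-month library 4 its TPM was 78.4-fold below the median of the other 17, 4499 TPM. Other abundant genes were low with it: 26 of the 77 genes were more than 10-fold lower there, against 0 to 2 genes in any other library, and Ednrb came 13th by size. Cystm1, the pleiotrophin gene Ptn and the ubiquitin gene Ubb lay furthest below the other libraries, at 7.48, 2.01 and 19.9 TPM, against medians of 5374, 1061 and 9652 TPM in the other 17.

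Astrocyte markers were not uniformly low in that library. Gfap, the intermediate filament of astrocytes, was at 17692 TPM there, against 2577 to 7772 TPM in the other 17. The glutamate transporter gene Slc1a3, at 1042 TPM against 321 to 645 TPM, and Glul, at 4774 TPM against 631 to 4355 TPM, were also highest there. In contrast Aqp4, at 22.4 TPM against 40.9 to 268 TPM, S100b, at 2.39 TPM against 19.0 to 68.1 TPM, and Aldoc, at 16.7 TPM against 35.8 to 412 TPM, were lowest there. Astrocyte markers summed to 24318 TPM in it, with 0 of 12 at 0. In bulk tissue, fewer cells of a type and less RNA per cell cannot be told apart, and why these genes were low in that library was not tested.

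**Figure D2:**
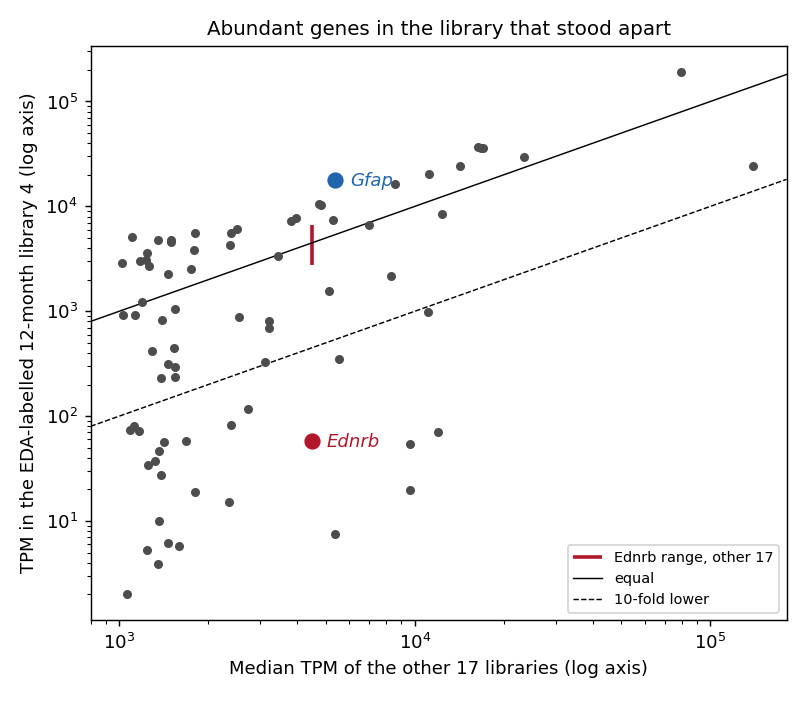
TPM in EDA-labelled 12-month library 4 (vertical log axis) against the median TPM of the other 17 libraries (horizontal log axis) for 77 abundant genes; each dot is 1 gene, the solid line marks equal levels, the dashed line a 10-fold lower level and the red bar the range of Ednrb in the other 17 libraries. Ednrb, at 57.4 TPM, is among the 26 genes under the dashed line, while Gfap lies above the solid line.

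The isoform makeup of Ednrb varied little. Ednrb-202, of 3989 nt, held 76.0% ± 1.89 (SD, n = 3) of Ednrb TPM in libraries labelled EDA and 78.4% ± 3.10 (SD, n = 5) in those labelled control at 22 months. In the 12-month libraries the share was 78.1% ± 3.22 in libraries labelled EDA and 79.0% ± 1.09 in those labelled control (SD, n = 5 each). Ednrb-201, of 4107 nt, held nearly all of the rest, 18.1% to 26.5% of Ednrb TPM in a library. EDA-labelled 12-month library 4, with its low Ednrb level, had an Ednrb-202 share of 73.3%, the lowest of the 18 but next to 73.4% in a control-labelled 22-month library.

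**Figure D3:**
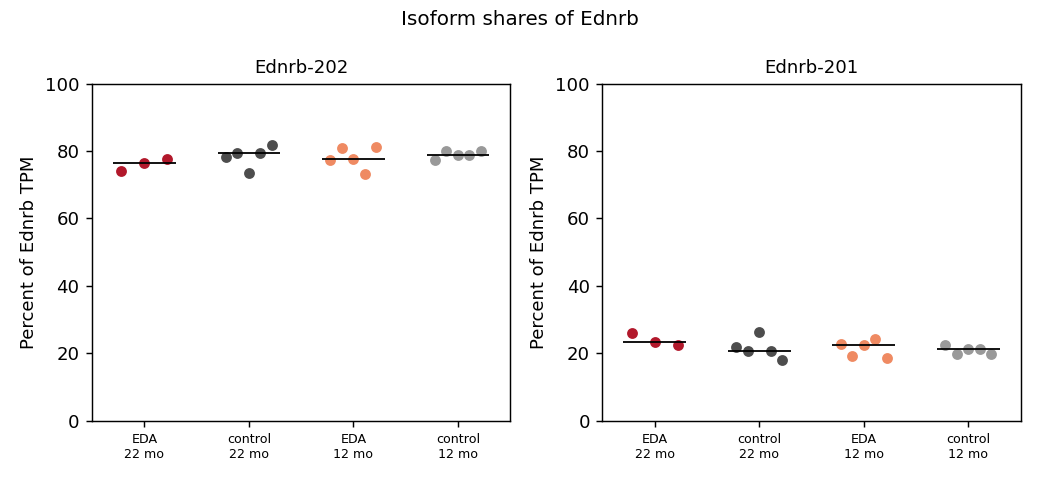
Share of Ednrb TPM held by the isoforms Ednrb-202 (left) and Ednrb-201 (right), in percent (vertical axes), in 18 libraries by label and age; each dot is 1 library and each bar a group median. Ednrb-202 holds 73.3% to 81.9% in every library and the groups overlap.

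Almost all receptor RNA was therefore Ednrb. Its share of the summed TPM of both receptors was 99.97% to 100% in libraries labelled EDA and 99.99% to 100% in those labelled control at 22 months. The 12-month values were 99.91% to 100% in libraries labelled EDA and 99.99% to 100% in those labelled control. The mean share of EDA-labelled less control-labelled libraries at 12 months was -0.0364 percentage points, with an exact two-sided permutation p of 0.048 and an adjusted p of 0.381 over 8 tests of single values, and it was -0.0240 percentage points without EDA-labelled library 4. At 22 months the difference was -0.0127 percentage points (exact permutation p = 0.107, adjusted p = 0.429). Between ages the exact permutation p was 0.446 in libraries labelled EDA and 1 in those labelled control. These designs allow a p as low as 0.0179 for 3 against 5 and 0.00794 for 5 against 5 libraries. With Ednrb far above Ednra, the share mostly follows the Ednra level, so these tests are not independent of the Ednra comparison. In EDA-labelled 12-month library 4 the low Ednrb level, 57.4 TPM, also lowers the share. In EDA-labelled 12-month library 4 the Ednra share of receptor reads, 0.0859%, rests on 2 Ednra reads and has an exact 95% interval of 0.0104% to 0.31%.

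Summed ligand TPM was compared on the log2(TPM + 0.1) scale. It averaged 3.32 ± 1.09 (SD, n = 3) in libraries labelled EDA and 1.86 ± 2.94 (SD, n = 5) in those labelled control at 22 months, a difference of 1.46 within the spread (exact permutation p = 0.625, adjusted p = 0.952). The control mean includes library 5, which held no ligand read, and without that library the difference was 0.16. The 12-month means were 2.51 ± 1.10 in libraries labelled EDA and 2.21 ± 0.82 in those labelled control (SD, n = 5 each; exact permutation p = 0.714, adjusted p = 0.952). That difference of 0.29 was 0.76 without EDA-labelled 12-month library 4, which had the lowest ligand sum. Between 22 and 12 months the exact permutation p was 0.375 in libraries labelled EDA and 0.952 in those labelled control. Receptor TPM exceeded ligand TPM 224-fold to 1640-fold in the 16 libraries other than control-labelled 22-month library 5, which held no ligand read, and EDA-labelled 12-month library 4, where it was 40.2-fold.

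Ece1 encodes the enzyme that cleaves big endothelin at the cell surface. The gene (ENSMUSG00000057530) lies on the plus strand of chromosome 4 at 137862237-137965229 in GRCm38. Its level was 2.50, 2.91 and 1.06 TPM in EDA-labelled libraries at 22 months, against 2.47, 1.32, 2.92, 4.03 and 0.08 TPM in control-labelled libraries. Among 12-month libraries it was 3.93, 0.56, 0.46, 7.06 and 0.02 TPM in EDA-labelled libraries, against 7.80, 0, 0.04, 0.54 and 0.10 TPM in control-labelled libraries. Within a group the libraries thus lay far apart, and the groups overlapped.

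Short isoforms weighed on these Ece1 values. The 1.06 TPM of EDA-labelled 22-month library 3 rested on 1 read assigned to Ece1-203, a transcript of 172 nt. In EDA-labelled 12-month library 4, 2 reads on Ece1-203 gave 3.19 of the 7.06 TPM. By reads Ece1 ran from 0 to 271 in a library.

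Ece2 encodes a related enzyme that acts at acidic pH inside cells and is known from neurons. The gene (ENSMUSG00000022842) lies on the plus strand of chromosome 16 at 20629828-20646485 in GRCm38. Its level was 6.06, 1.98 and 1.11 TPM in EDA-labelled libraries at 22 months, against 8.70, 1.48, 1.04, 1.50 and 1.97 TPM in control-labelled libraries. At the younger age the values were 7.59, 2.09, 2.39, 7.29 and 7.46 TPM in EDA-labelled libraries, against 4.48, 6.83, 1.80, 1.75 and 5.09 TPM in control-labelled libraries. Libraries near 2 TPM and near 7 TPM occurred in both groups at 12 months.

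The Ece2 values are uncertain in their assignment. Gm49333, a coding model on the same strand that overlaps Ece2, took 0 to 80.2 reads, and reads common to both were divided by estimate. The retained-intron isoform Ece2-205 was detected in 11 libraries and held up to 68.7% of Ece2 TPM.

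Differences between groups were then tested for the 6 members that passed the filter, in a model fitted to all 15118 genes that passed. None of the 6 was called in any comparison, in either direction. The lowest unadjusted p of a member was 0.114, for Ednra at 12 months. The share of all tested genes called by edgeR's quasi-likelihood test at an adjusted p under 0.05 was 0% in each of the 5 comparisons, so the members' count equals the background. Over all genes 599 had an unadjusted p under 0.05 for EDA against control labels at 22 months and 689 at 12 months, and DESeq2 called 35 and 22 genes, with limma voom calling 1 and 2. For 22 against 12 months the unadjusted counts were 753 in libraries labelled EDA and 530 in those labelled control, DESeq2 called 43 and 23 genes and limma voom 0 and 0. For the difference of the label effect between ages they were 608 unadjusted, 37 by DESeq2 and 1 by limma voom.

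For the ligands, the log2 fold change of EDA-labelled over control-labelled libraries was -2.45 ± 2.16 (SE) for Edn1 at 22 months and 1.22 ± 1.69 at 12 months. Leaving out 1 library at a time put Edn1 anywhere from -7.29 to -1.88 at the older age and from 0.78 to 3.83 at the younger. The difference between these Edn1 effects was -3.67 ± 2.73, with an unadjusted p of 0.194 and an adjusted p of 1.00 (edgeR). Edn3 had a log2 fold change of 0.67 ± 1.06 at 22 months and 0.11 ± 0.93 at 12 months. Without EDA-labelled 12-month library 4 the 12-month Edn3 value was 0.43 ± 0.82. With all libraries the fitted Edn3 value at 12 months is positive although mean log2 CPM was 2.48 in libraries labelled EDA and 3.06 in those labelled control.

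For the receptors, Ednra had the largest fitted values, 3.44 ± 2.15 at 22 months and 3.31 ± 2.00 at 12 months (log2 fold change ± SE, EDA over control labels), each with an adjusted p of 1 in edgeR. The 95% intervals, -0.78 to 7.66 and -0.62 to 7.24, include 0. Ednra held 10 or more reads in 5 of 8 EDA-labelled and 2 of 10 control-labelled libraries. It thus passed the filter on low counts mainly through EDA-labelled libraries, where it is higher, and its fitted values are a description. These Ednra values ran from 2.03 to 7.88 at the older age and from 1.43 to 5.70 at the younger when single libraries were left out. With the ratio of Xist to Y-linked reads as a covariate, Ednra was 6.41 ± 2.90 at 22 months (SE, unadjusted p = 0.039, adjusted p = 1 in edgeR) and 3.14 ± 1.95 at 12 months. The covariate had 1 slope for all groups. At 22 months Xist exceeded Y-linked genes only in EDA-labelled library 1, the highest in Ednra there, with 72 reads. At 12 months the libraries where Xist was higher held 0 to 2 Ednra reads. The adjusted 22-month value thus rests partly on 12-month libraries and on that 1 library. Ednrb had 0.12 ± 0.67 at 22 months, with an interval of -1.19 to 1.44, and -0.47 ± 0.58 at 12 months. Without EDA-labelled 12-month library 4 the Ednrb values were 0.12 ± 0.25 at 22 months and -0.15 ± 0.23 at 12 months, with smaller errors. The difference of the Ednrb effect between ages was 0.59 ± 0.89, and 0.28 ± 0.34 without it.

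For the enzymes, Ece1 had a log2 fold change of -0.42 ± 1.64 at 22 months and 0.09 ± 1.41 at 12 months (SE, EDA over control labels). Ece2 had 0.25 ± 0.86 and 0.04 ± 0.75 at these ages. Without EDA-labelled 12-month library 4 the 12-month values were -0.48 ± 1.52 for Ece1 and -0.11 ± 0.81 for Ece2. The direction of the enzyme values turned when single libraries were left out at either age, and that of Edn3 at 12 months did too.

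The age comparisons share libraries with the label comparisons and are given beside them for that reason. In EDA-labelled libraries the log2 fold change of 22 over 12 months was -2.70 ± 2.19 (SE) for Edn1, 1.12 ± 1.05 for Edn3, -0.18 ± 2.13 for Ednra, 0.48 ± 0.67 for Ednrb, 0.26 ± 1.61 for Ece1 and -0.53 ± 0.88 for Ece2. Without library 4 of the 12-month group these were -2.66 ± 2.30, 0.80 ± 0.93, -0.48 ± 2.23, 0.16 ± 0.26, 0.83 ± 1.71 and -0.38 ± 0.93 in the same order of genes. In control-labelled libraries it was 0.97 ± 1.68 for Edn1, 0.56 ± 0.94 for Edn3, -0.31 ± 1.85 for Ednra, -0.11 ± 0.58 for Ednrb, 0.78 ± 1.41 for Ece1 and -0.74 ± 0.75 for Ece2. The fitted signs differed from those of mean log2 CPM for Edn3 in control-labelled and Ednra in EDA-labelled libraries. All 12 values lay within 2 standard errors of 0. The signs of Ednra and Ednrb in control-labelled libraries, and of Ednra and Ece1 in EDA-labelled libraries, turned when single libraries were left out.

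**Figure D4:**
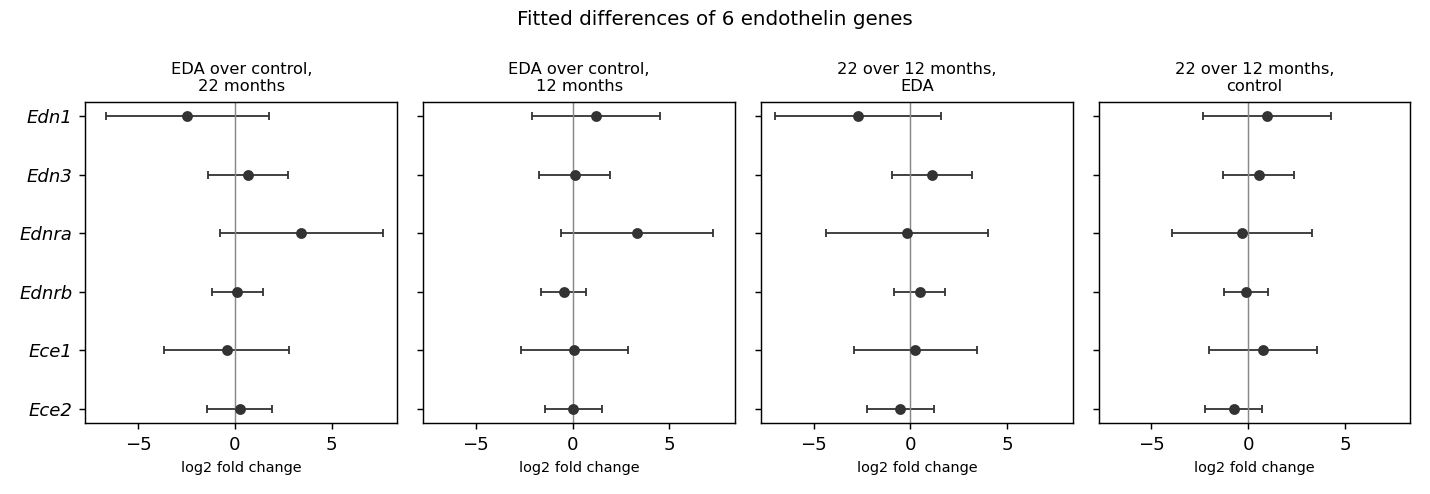
Fitted log2 fold changes (horizontal axes) of the 6 tested endothelin genes (rows) in 4 comparisons (panels); points are edgeR estimates over the group named first against the one named second, and bars are approximate 95% intervals. Every interval includes 0, with the widest for Edn1 and Ednra and the narrowest for Ednrb and Ece2.

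Members were set against markers of the cells known to make them, over the 18 libraries as log2 CPM less the group mean, in 4 relations. Ednrb and the astrocyte score had a Pearson r of 0.20 (permutation p = 0.416, adjusted 0.458) and a Spearman rho of 0.28 (permutation p = 0.264, adjusted 0.285), with r = 0.29 without the 2 libraries farthest from the median score. This r was -0.38 with upper-quartile scaling, and 0.23 without EDA-labelled 12-month library 4. Edn1 and the endothelial score had a Pearson r of 0.46 (permutation p = 0.056, adjusted 0.224), a Spearman rho of 0.39 (permutation p = 0.113, adjusted 0.285) and r = 0.52 without the 2 farthest libraries. Ece1 and the endothelial score had a Pearson r of 0.19 (permutation p = 0.458, adjusted 0.458), a Spearman rho of 0.27 (permutation p = 0.285, adjusted 0.285) and r = 0.04 without the 2 farthest libraries. Ednra and the mural score had a Pearson r of 0.37 (permutation p = 0.135, adjusted 0.271), a Spearman rho of 0.31 (permutation p = 0.207, adjusted 0.285) and r = 0.47 without the 2 farthest libraries. No relation passed the threshold.

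The genes whose pattern was most like a member's were taken by Pearson r over the same 18 values, among 4543 genes with a symbol and a mean of at least 4 log2 CPM. The points share library depth and composition, so r is a description. Ednrb was closest to Gnb5, a G protein beta subunit (r = 0.99), Ctnna1, alpha catenin (r = 0.99), and the ceramide synthase gene Cers5 (r = 0.99). These values rested on EDA-labelled 12-month library 4, since without it they were 0.87, 0.76 and 0.76. Edn3 was closest to Amotl1 (r = 0.94), Zfr (r = 0.93) and Ccpg1 (r = 0.91), which were 0.90, 0.90 and 0.86 without that library. Both sets of values keep control-labelled 22-month library 5, which held 0 Edn3 reads. Its Edn3 level was -2.90 log2 CPM, against 3.31 to 4.72 in the rest of its group, and r without it was not computed. Ece2 was closest to Slc10a7 (r = 0.64), Scrib (r = 0.63) and Arhgap31 (r = 0.61). Edn1, Ednra and Ece1 were too low for this description.

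Genes around the endothelin system were followed in 7 lists that held 97 genes, of which 77 passed the filter. None was called in any comparison by edgeR. At an unadjusted p under 0.05 there were 0 of 77 for EDA against control labels at 22 months, beside 3.96% of all genes. At 12 months there were 5 higher and 1 lower in EDA-labelled libraries, 7.79% of the 77 beside 4.56% of all genes, and without EDA-labelled 12-month library 4 there were 3 higher and 1 lower, 5.19% beside 3.84%. For 22 against 12 months there were 1 higher and 1 lower in EDA-labelled libraries, 2.60% beside 4.98% of all genes, and 2 higher in control-labelled libraries, 2.60% beside 3.51%.

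Downstream of the receptors, all 23 genes for G proteins, phospholipase C and calcium release were tested. Their median log2 fold change for EDA over control labels was -0.18 at 22 months, beside -0.07 for all genes, and -0.05 at 12 months, beside -0.01. At 22 months the smallest p belonged to the inositol trisphosphate receptor gene Itpr2, with a log2 fold change of 0.74 ± 0.47 (SE, unadjusted p = 0.129, adjusted p = 1 in edgeR), then to Itpr1 and Gnas. Gna13, a G protein alpha subunit, ranged from 8.57 to 19.8 TPM in libraries labelled EDA and 3.60 to 8.65 TPM in those labelled control at 12 months. Its log2 fold change was 0.98 ± 0.44 (SE, unadjusted p = 0.037, adjusted p = 1 in edgeR), and the groups overlapped only between 8.57 and 8.65 TPM. Gna13 was named for the smallest p of its list at 12 months, and how many of all genes overlapped as little was not counted. Gna11 had 0.92 ± 0.48 and the signalling regulator gene Rgs5 -0.94 ± 0.50 in the same comparison. Without EDA-labelled 12-month library 4 the values were 0.78 ± 0.44 for Gna13 (unadjusted p = 0.090), 0.73 ± 0.49 for Gna11 and -0.65 ± 0.40 for Rgs5. For 22 over 12 months in EDA-labelled libraries Itpr3 ranged from 2.85 to 3.93 TPM at 22 months and from 1.28 to 2.50 TPM at 12 months, without overlap, with a log2 fold change of 1.14 ± 0.47 (SE, unadjusted p = 0.023, adjusted p = 0.961 in edgeR). Itpr3 was named for the smallest p of its list there, and how many of all genes lacked overlap was not counted.

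Upstream, 14 of 15 genes known to act on Edn1 transcription were tested. Fos, a subunit of AP-1, ranged from 10.9 to 55.6 TPM in libraries labelled EDA and 1.72 to 9.44 TPM in those labelled control at 12 months, without overlap. Its log2 fold change was 2.08 ± 0.67 (SE, unadjusted p = 0.005, adjusted p = 1 in edgeR), and 1.52 ± 0.64 without EDA-labelled library 4. Fos too was named for the smallest p of its list, and how many of all genes lacked overlap was not counted. For 22 over 12 months in control-labelled libraries Fos had a log2 fold change of 1.66 ± 0.66, which uses the same 12-month control libraries. The glucocorticoid receptor gene Nr3c1 had -0.85 ± 0.43 at 22 months and -0.53 ± 0.37 at 12 months for EDA over control labels, and -0.35 ± 0.33 at 12 months without that library. Among 6 of 7 tested factors linked to Ednrb and Edn3, Sox9 had 0.75 ± 0.34 at 12 months (SE, unadjusted p = 0.038, adjusted p = 1 in edgeR), with overlapping groups, and 0.39 ± 0.28 without EDA-labelled library 4 (unadjusted p = 0.184). Sox10, the neural crest and oligodendrocyte factor, had -3.07 ± 1.95 at 22 months, a value that was 0.69 without control-labelled 22-month library 3. It was highest, at 46.3 TPM, in EDA-labelled 12-month library 4. Oligodendrocyte markers summed to 3156 TPM in that library, and to 22978 TPM in control-labelled 22-month library 3. Their part in the Sox10 values was not tested.

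Opposing and parallel vasoactive signals showed no called gene either. Of the 9 nitric oxide and cyclic GMP genes 8 were tested, and Nos3, the endothelial nitric oxide synthase, had 0.62 ± 0.55 at 22 months for EDA over control labels. Nos2 was at 0 in every library. Of 23 other vasoactive genes 12 were tested, among them the adrenomedullin co-receptor gene Ramp2 with -1.08 ± 0.51 at 12 months for EDA over control labels (SE, unadjusted p = 0.047, adjusted p = 1 in edgeR). Without EDA-labelled library 4, its lowest library, the Ramp2 value was -0.77 ± 0.27 (unadjusted p = 0.010, adjusted p = 1 in edgeR). Ramp2 ranged there from 6.69 to 139 TPM in libraries labelled EDA and 120 to 236 TPM in those labelled control. Of the 7 peptidases linked to endothelin clearance only Ecel1 was tested, with -0.10 ± 0.52 at 22 months and 0.11 ± 0.45 at 12 months.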

How the data were processed

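Total RNA of 18 optic nerve head libraries was amplified with SMART-Seq v4, turned into unstranded Nextera XT libraries and sequenced in pairs on a NovaSeq, per the labels' protocols. The authors aligned reads with STAR and quantified them with RSEM, per the labels' protocols, on GRCm39, per the submitters' processing notes. Annotation and versions were not given in the sources used here. The deposited expected counts are the authors' RSEM estimates (3.59% of gene values were not whole) and were rounded. The deposited TPM values are also the authors' and are scaled for transcript length and library total. RSEM divides reads shared by overlapping genes or isoforms by likelihood.

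Symbols (52083 of 55416 identifiers), positions and transcripts came from GENCODE M21 (GRCm38), another build. Groups came from the labels; replicates were numbered in accession order and are not paired. Library pairs within groups differed beyond sampling noise, with chi-square over degrees of freedom of at least 39.1.

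Genes passing filterByExpr (15118) were scaled by TMM and fitted with a mean per group in edgeR 4.0.16 (robust quasi-likelihood, R 4.3.3). The 5 contrasts were two-sided, with Benjamini-Hochberg adjustment over all genes at a threshold of 0.05. Log2 CPM used a prior count of 2. DESeq2 1.42.0, limma 3.58.1 voom with quality weights, upper-quartile scaling, no filter, covariates and leaving out each library were alternatives. The fit was run on simulated counts with the same spread for every gene and changes placed only in well-read genes. That run does not cover the scarce members. Receptor share and ligand sum (pseudocount 0.1 TPM) were compared by exact permutation, and correlations used 100000 permutations.

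The text names, by rule, every member, counts of each pathway list with up to 3 of its genes of smallest p per comparison, and the 3 genes nearest in pattern to each member of at least 2 mean log2 CPM. Members and lists were chosen with earlier results of these data known. The genes of 1 pathway list and 1 further gene are not reported here.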

Additional observations from a re-analysis of the deposited data

Results flagged for a closer look

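Single libraries stood far from the rest of their group in 8 places, where the gap to the next library was over 0.71 of the group's range. In all, 27 groups of 5 libraries were examined. The limit assumes normally distributed values, so no chance rate can be given for values near 0 TPM. Where a single library lies above 0, as for Ednra in control-labelled 22-month libraries, it passes the limit whatever its level. The flags of the Ednrb share come from the same Ednra values. The part of chance in these values was not tested.

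Edn1 was highest in control-labelled 12-month library 4, at 2.08 TPM against 0 to 0.26 TPM in the other 4. Ednra was highest in control-labelled 22-month library 1, at 0.29 TPM against 0 TPM in the others, in EDA-labelled 12-month library 2, at 3.59 TPM against at most 0.72 TPM, and in control-labelled 12-month library 4, at 0.38 TPM against at most 0.05 TPM. The Ednrb share of receptor TPM was correspondingly lowest in control-labelled 22-month library 1, at 99.9896%, and in control-labelled 12-month library 4, at 99.9943%.

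Ece1 was highest in control-labelled 12-month library 1, at 7.80 TPM against at most 0.54 TPM in the other 4. Ece2 was highest in control-labelled 22-month library 1, at 8.70 TPM against at most 1.97 TPM, and 59.2% of it was assigned to the retained-intron isoform Ece2-205. The low Ednrb level of EDA-labelled 12-month library 4 (57.4 TPM) did not pass this rule, because the other 4 libraries of its group were themselves spread from 4106 to 6444 TPM.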

How the results depend on the processing

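The 30 tested member values were recomputed under those of 25 settings that bear on each comparison, since leaving out a library was applied mainly to comparisons that use it. This gave 540 values, and no member passed an adjusted p of 0.05 in any. Of these 492 kept their direction and 48 turned, none of them for Edn1. No paired analysis was possible because the labels give no replicate numbers. Edn1, Ednra and Ece1 rest on few reads in many libraries, and they also spread widely between libraries of similar depth, so how far depth limits them was not tested.

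With the Xist against Y covariate, the log2 fold change of Ece2 was -0.19 at 22 months and -0.34 for the difference between ages, and that of Ednra with age in EDA-labelled libraries was 2.61. The last was also 1.28 with the ENSMUSG00000119584 share as covariate and 0.51 with limma voom. ENSMUSG00000119584, a gene without a symbol, took 4.81% to 17.3% of reads in EDA-labelled and 10.7% to 32.8% in control-labelled libraries at 22 months. At both ages its lowest share was in an EDA-labelled and its highest in a control-labelled library, and the groups overlapped. TPM values, marker sums and the ligand sum were not corrected for it, and its effect on them was not tested. With limma voom Ece2 was -0.0242 at 12 months and 0.0507 with age in EDA-labelled libraries. Ece1 with age in EDA-labelled libraries was -0.0328 with upper-quartile scaling, and the correlation of Ednrb with the astrocyte score was -0.38. With a pseudocount of 1 the ligand sum with age in control-labelled libraries was 0.14.

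Leaving out 1 library at a time, EDA against control labels at 22 months ranged from -1.23 to 0.15 for Ece1 and from -0.24 to 1.10 for Ece2. At 12 months it ranged from -0.18 to 0.43 for Edn3, from -0.48 to 4.31 for Ece1 and from -0.21 to 0.62 for Ece2. With age in control-labelled libraries Ednra ranged from -4.75 to 2.09 and Ednrb from -0.24 to 0.0019. In EDA-labelled libraries Ednra ranged from -1.59 to 1.70 and Ece1 from -0.55 to 0.84. The difference between ages ranged from -0.0183 to 0.96 for Edn3, from -2.26 to 4.57 for Ednra, from -4.74 to 0.0604 for Ece1 and from -0.38 to 1.07 for Ece2. With age in control-labelled libraries the receptor share ranged from -0.0018 to 0.0013 percentage points and the ligand sum from -0.88 to 0.94. The cause of each turn was not tested. Without EDA-labelled 12-month library 4, a choice made after seeing the data, no member was called in any comparison.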

Other observations

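The mean of the label effects at 22 and 12 months was fitted for all genes in the same edgeR model, a comparison chosen after the data were seen. edgeR called 0 of the 15118 genes in it, and the unadjusted p was under 0.05 for 720. Ednra had a log2 fold change of 3.37 ± 1.47 (SE, EDA over control labels), with an unadjusted p of 0.032 and an adjusted p of 1.00 in edgeR. Ednra held 10 or more reads in 5 of 8 EDA-labelled and 2 of 10 control-labelled libraries, and how many of all genes were as uneven was not counted. It thus passed the filter on low counts mainly through EDA-labelled libraries, where it is higher, so its p is a description. Leaving out 1 library at a time moved the Ednra log2 fold change from 2.43 to 5.59, and its unadjusted edgeR p from 0.0041 to 0.117. Ednrb had -0.17 ± 0.45 and Edn3 0.39 ± 0.71. The other tested members had log2 fold changes of -0.61 for Edn1, -0.17 for Ece1 and 0.14 for Ece2, each smaller in size than its SE.

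Without EDA-labelled 12-month library 4 the genes closest to Ednrb in pattern over 17 libraries were 1110002L01Rik (r = 0.90), Gnb5 (r = 0.87) and Nkx6-1 (r = 0.85). Those closest to Edn3 were Arfgef2, Klhl11 and Ddx58 (r = 0.93 each). Control-labelled 22-month library 5, which held 0 Edn3 reads, was kept in these values, and r without it was not computed.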
